A study of Mus musculus with 24 samples.

Results

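The cell proliferation genes are a list of 37 symbols that cover DNA replication, cyclins, mitotic kinases, the spindle checkpoint, the kinetochore, the spindle and cytokinesis. They were selected by symbol from the nuclear count table, and 32 of the 37 had a row among its 31346 genes. The remaining 5, Mki67, Top2a, Rrm2, Melk and Ube2c, were not analysed here. The libraries were made from polyadenylated RNA of whole mouse retina, with 1 library per mouse, in 4 groups. The methods do not say whether a library holds 1 or both retinas of a mouse, and each library is called a retina below. WT retinas (n = 4) came from C57BL/6J mice, and the other groups from rd10 mice on the same background, which carry a germline mutation of the rod phosphodiesterase gene Pde6b and lose their rods in early life. The rd10 vehicle (n = 8) and rd10 TMB (n = 8) mice were reared in darkness, moved to vivarium light on day 29 and collected on day 36 by the labels (day 37 by the design text), as were the WT mice, which shared this housing. The rd10 vehicle mice ate the base diet, and the rd10 TMB mice a chow with tamsulosin, metoprolol and bromocriptine from day 28. The dark-reared rd10 mice (rd10 DR, n = 4) ate the base diet, saw no light and were collected on day 30 by the labels (day 28 by the design text), so age and light exposure cannot be told apart in any comparison with rd10 DR. Each group held as many females as males.

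Cells that enter division copy their DNA with a helicase, a sliding clamp and enzymes of nucleotide supply, pass through S phase and mitosis under cyclins and their kinases, and attach and separate their chromosomes with the kinetochore and the spindle. Transcripts of the mitotic genes accumulate mainly in the later part of the cycle and are low in resting cells. The neurons and photoreceptors of the mature retina do not divide, whereas microglia, vessel cells and, after injury, a few glial cells can. Whole retina was measured, so fewer cells of a type and less RNA per cell cannot be told apart in any value below.

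Many promoters of mitotic genes hold a CHR element (TTTGAA) and CCAAT boxes, and those of replication genes an E2F element (TTTGGCGC or TTTCGCGC). To show what the most changed members share in sequence, the promoters, from 250 bases before to 50 after the start site, are given for the 4 members with the largest fold changes past the test in rd10 vehicle against WT that had an entry. The sequences are from RefSeq on GRCm38.p6, written from 5′ to 3′ on the strand of the gene, for Cenpf (chr1:189688037-189688336, minus strand), Plk1 (chr7:122159185-122159484, plus strand), Cdc20 (chr4:118437294-118437593, minus strand) and Cenpe (chr3:135212313-135212612, plus strand). Capitals mark the CHR element, the CCAAT box, the E2F element and the CRX element (TAATCC), each searched on both strands; only the CHR element and the CCAAT box were found in these 4 windows.
Cenpf: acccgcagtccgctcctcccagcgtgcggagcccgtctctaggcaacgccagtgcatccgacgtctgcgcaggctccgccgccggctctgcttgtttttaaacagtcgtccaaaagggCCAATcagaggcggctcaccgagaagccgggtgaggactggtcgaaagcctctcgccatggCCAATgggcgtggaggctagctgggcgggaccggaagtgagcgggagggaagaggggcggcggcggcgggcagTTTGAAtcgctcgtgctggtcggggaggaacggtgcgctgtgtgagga
Plk1: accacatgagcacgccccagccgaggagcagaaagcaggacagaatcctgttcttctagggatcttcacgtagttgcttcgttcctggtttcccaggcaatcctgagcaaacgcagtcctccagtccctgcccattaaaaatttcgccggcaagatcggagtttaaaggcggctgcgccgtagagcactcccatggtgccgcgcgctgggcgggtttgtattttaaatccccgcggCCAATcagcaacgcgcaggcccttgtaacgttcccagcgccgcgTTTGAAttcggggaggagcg
Cdc20: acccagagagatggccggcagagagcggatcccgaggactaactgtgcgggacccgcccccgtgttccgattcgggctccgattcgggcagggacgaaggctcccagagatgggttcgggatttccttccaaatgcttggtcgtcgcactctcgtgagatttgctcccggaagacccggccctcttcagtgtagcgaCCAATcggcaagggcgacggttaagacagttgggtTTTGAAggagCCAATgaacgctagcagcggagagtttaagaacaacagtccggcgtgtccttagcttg
Cenpe: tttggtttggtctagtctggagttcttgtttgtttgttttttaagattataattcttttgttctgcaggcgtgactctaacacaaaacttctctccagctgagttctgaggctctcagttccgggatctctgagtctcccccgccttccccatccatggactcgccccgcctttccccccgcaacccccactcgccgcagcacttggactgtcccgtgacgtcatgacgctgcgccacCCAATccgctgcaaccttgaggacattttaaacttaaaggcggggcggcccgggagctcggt
The CHR element began at position 3 of Cenpf, 31 of Plk1 and -18 of Cdc20, counted from the start site as 1, and none was found in the Cenpe window. CCAAT boxes lay at -132 and -71 of Cenpf, -14 of Plk1, -53 and -8 of Cdc20 and -12 of Cenpe. Of 27 members with an entry, 16 held a CHR element, 23 a CCAAT box, 4 an E2F element (Mcm3, Mcm5, Mcm6 and Cdk1) and 0 a CRX element. Among all 27025 promoters of this length the shares were 18.1%, 37.9%, 0.833% and 7.16%. A match describes letters in this window and is not a binding site. Both elements were found in Cdc20, which was higher in rd10 vehicle than in WT, and in Cenpf and Plk1, which were lower.

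The members were present at very different levels. Per kb of exon, Spc25, a subunit of the kinetochore complex that binds microtubules, stood first in WT at 52.0 ± 7.43 CPM per kb (SD, n = 4), where CPM are counts scaled to library size after TMM normalisation. Bub1b, a kinase of the spindle checkpoint, followed at 7.49 ± 1.247, the replication clamp Pcna at 7.29 ± 0.40 and the cyclin gene Ccna2 at 6.79 ± 0.63 CPM per kb. The spreads of these last 3 overlap. At the other end, Ccnb1, the mitotic cyclin that activates Cdk1, had 0.0116 ± 0.0160 CPM per kb in WT, and its raw counts were between 0 and 9 in all 24 libraries. The spindle gene Hmmr had 0 to 39 counts, the mitotic kinase Aurkb 1 to 39 and the checkpoint kinase Bub1 0 to 37. Spc25 and Bub1b held 45.1% and 15.04% of the summed CPM of the members, on average over the libraries. The sum over the list therefore mostly follows these genes and is not read here as a measure of dividing cells.

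**Figure D1:**
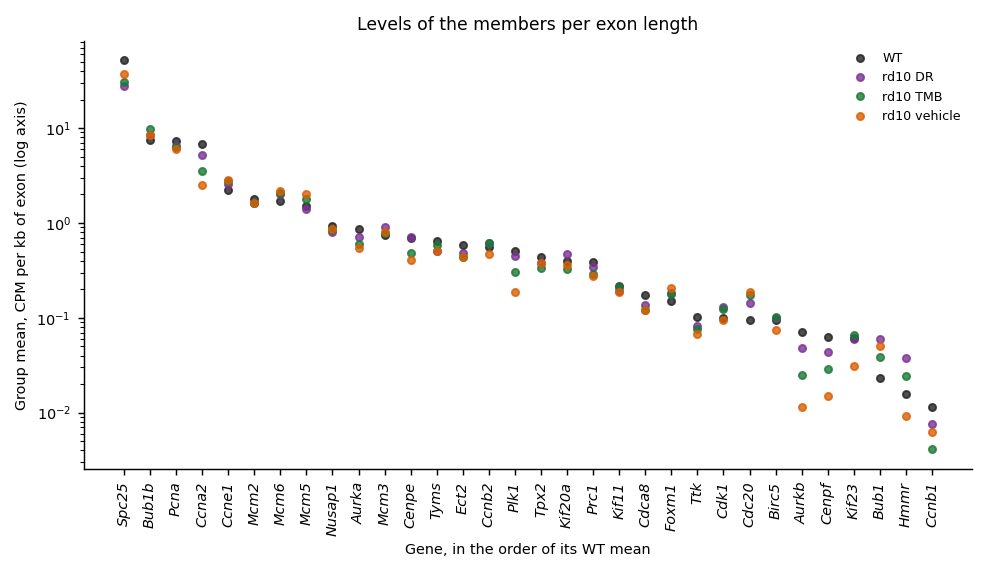
Group means of the 32 members in CPM per kb of exon on a log axis, in the order of their WT mean, with points for WT, rd10 DR, rd10 TMB and rd10 vehicle. Spc25 is first and Ccnb1 last in every group, and Ccna2 stands at 6.79 in WT and 2.52 in rd10 vehicle.

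Nuclear counts came to between 56799680 and 86471014 per library. Rod markers were the most abundant of the cell type lists, with a summed level of 79050 to 90094 CPM over 10 genes in WT, 47880 to 52977 in rd10 DR, 18808 to 38196 in rd10 TMB and 7857 to 24688 in rd10 vehicle. Of the microglia and macrophage list, which begins with Aif1 and Cx3cr1, 16 of 16 genes were higher than in WT in each rd10 group, and its sum was 76.0 to 114 CPM in WT, 263 to 355 in rd10 DR, 360 to 498 in rd10 TMB and 395 to 452 in rd10 vehicle. WT retina 3 and rd10 TMB retina 3 stood apart for several members at low levels, and their values are given with the results they touch. Titles of rd10 animals begin with RD8, RD9 or RD10, a prefix that the labels do not explain and that was treated as a possible batch. Rd10 vehicle held 1, 3 and 4 of these, rd10 TMB 0, 3 and 5, and all 4 rd10 DR retinas had RD10.

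**Figure D2:**
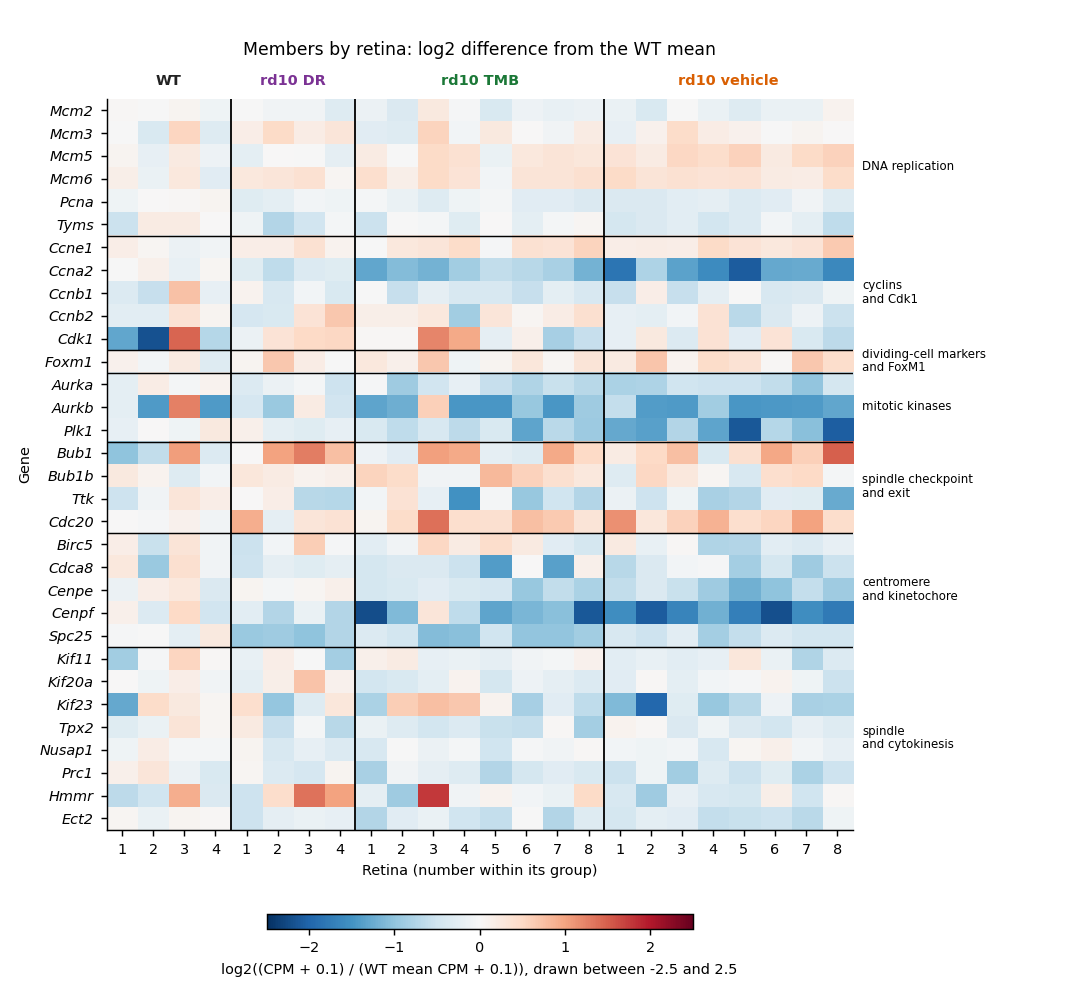
Each of the 32 members (rows, by role) in each of the 24 retinas (columns, by group) as the log2 difference from the WT mean after adding 0.1 CPM, blue for lower and red for higher. Ccna2, Plk1 and Cenpf are blue and Mcm5 and Cdc20 red in all 8 rd10 vehicle retinas, and WT retina 3 is red for Cdk1, Aurkb, Bub1, Ccnb1 and Hmmr.

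Rd10 vehicle against WT retinas sets the untreated, light-exposed disease beside the healthy retina. The share of members that fell was near that of all genes, and the share that rose was below it. Of 29 members that passed the filter on low counts, 10 fell and 4 rose at an adjusted p under 0.05 (edgeR quasi-likelihood test, adjusted over all 20763 genes tested). The 10 lower members are 34.5% of those tested, against 30.2% of all genes called lower, and the 4 higher ones 13.8%, against 31.6%. The members had a median log2 fold change of -0.24, and all genes together 0.01. Aurkb, Ccnb1 and Hmmr did not pass the filter. With RD10 retinas alone 3 members rose and 8 fell, where 5915 of all 20045 genes rose and 5079 fell. With RD9 retinas alone 3 members rose and 7 fell, where 5424 of all 20429 genes rose and 4531 fell. In a fit with no filter Aurkb, the passenger complex kinase, stood at -2.53 on the log2 scale (adjusted p = 0.0191), a value that WT retina 3 weighs on, with 39 counts against 1 to 9 in the other WT retinas.

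The cyclin gene Ccna2 (chromosome 3, 36564865 to 36572150), whose product drives S phase and entry into mitosis, was at 27.6, 30.2, 24.2 and 28.9 CPM in the WT retinas. In rd10 vehicle it was at 6.52 CPM in the lowest retina, 10.1 at the median and 16.1 in the highest. All 8 were below every WT retina, and the level was 2.72-fold lower (log2 fold change -1.44, SE 0.17, adjusted p = 5.98e-06). In rd10 DR it was at 22.3, 17.7, 21.7 and 22.4 CPM, also below every WT retina. Ccna2 shares 12.5% of its exon bases with Exosc9 on the other strand, and the libraries do not keep strand, so part of its counts may belong to that gene. Ccne1, the cyclin of entry into S phase, moved the other way, from 5.40 to 6.68 CPM in WT to a range of 6.68 to 9.40 in rd10 vehicle with a median of 7.37. It was 1.26-fold higher (log2 fold change 0.33, SE 0.11, adjusted p = 0.0149), with ranges that touch.

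The 2 mitotic kinases that could be tested were both called lower, as were 30.2% of all genes. Plk1 (chromosome 7, 122159439 to 122169873), the polo-like kinase of mitotic entry, was at 0.944, 1.11, 1.02 and 1.33 CPM in WT. In rd10 vehicle the lowest retina had 0.179, the median 0.387 and the highest 0.633 CPM. The groups did not overlap, and Plk1 was 2.74-fold lower (log2 fold change -1.45, SE 0.30, adjusted p = 0.000631). Aurka, the kinase of the centrosome and spindle poles, was 1.60-fold lower (log2 fold change -0.68, SE 0.14, adjusted p = 0.00053), from 1.82 to 2.48 CPM in WT to 1.05 to 1.57. These ranges did not overlap either.

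Of 5 members of the centromere and kinetochore, 3 fell and 0 rose, where 30.2% of all genes fell and 31.6% rose. Cenpf (chromosome 1, 189640606 to 189688086), a large protein that joins the kinetochore late in the cycle, had the largest fold change of the 29 members tested in this comparison. It was at 1.07, 0.737, 1.40 and 0.666 CPM in WT, and in rd10 vehicle at 0.132 in the lowest, 0.232 at the median and 0.366 in the highest retina. All rd10 vehicle retinas were below all WT retinas, and Cenpf was 4.16-fold lower there (log2 fold change -2.05, SE 0.27, adjusted p = 1.17e-05). Its raw counts were 45 to 85 in WT and 9 to 27 in rd10 vehicle. Cenpe (chromosome 3, 135212537 to 135273611), the motor that moves chromosomes to the spindle equator, was at 5.36, 6.69, 7.13 and 4.57 CPM in WT and between 2.51 and 4.57 in rd10 vehicle, with a median of 3.49. It was 1.71-fold lower (log2 fold change -0.78, SE 0.16, adjusted p = 0.000665), and the highest rd10 vehicle retina lay just under the lowest of WT. Spc25 was at 161, 164, 140 and 197 CPM in WT. In rd10 vehicle it had 92.0, 120 and 138 CPM as lowest, median and highest value, 1.40-fold lower (log2 fold change -0.49, SE 0.10, adjusted p = 0.000523) and without overlap. Birc5 and Cdca8, which like Aurkb are part of the chromosomal passenger complex, stood at log2 fold changes of -0.34 (adjusted p = 0.353) and -0.52 (adjusted p = 0.106).

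**Figure D3:**
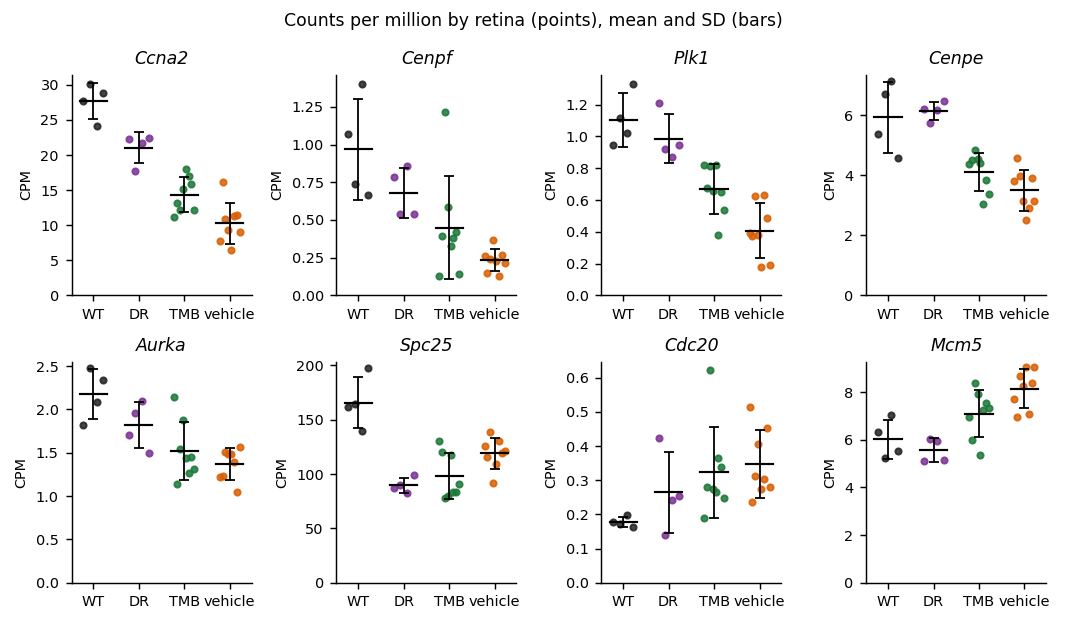
CPM of Ccna2, Cenpf, Plk1, Cenpe, Aurka, Spc25, Cdc20 and Mcm5 in each retina (points) of WT, rd10 DR, rd10 TMB and rd10 vehicle, with the group mean (line) and SD (bar), on axes that start at 0. Ccna2 lies between 24.2 and 30.2 CPM in WT and between 6.52 and 16.1 in rd10 vehicle, and Spc25 is lower in rd10 DR (82.5 to 99.2) than in WT (140 to 197).

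Of 4 members of the spindle checkpoint and exit group, Cdc20 rose and 0 fell, where 31.6% of all genes rose and 30.2% fell. Cdc20 (chromosome 4, 118432901 to 118437352), the activator of the ubiquitin ligase that ends mitosis, was at 0.178, 0.172, 0.198 and 0.163 CPM in WT and at 0.236, 0.308 and 0.513 as lowest, median and highest of rd10 vehicle. The groups did not overlap, and it was 1.93-fold higher (log2 fold change 0.95, SE 0.28, adjusted p = 0.00795). This rests on few reads, with 10 to 12 counts in WT and 14 to 39 in rd10 vehicle. Bub1b, at 25.6 to 38.1 CPM in WT and 24.4 to 46.2 in rd10 vehicle, was at 0.15 on the log2 scale (adjusted p = 0.467). The checkpoint kinase gene Ttk had -0.60 (adjusted p = 0.0858). Of 7 tested members of the spindle and cytokinesis group 2 fell, where 30.2% of all genes did. Prc1, the bundler of the central spindle, was 1.42-fold lower (adjusted p = 0.014) and Ect2, the activator of the contractile ring, 1.36-fold lower (adjusted p = 0.00615), with ranges that overlap WT. Kif23, a motor of the central spindle, stood at -0.99 (adjusted p = 0.0568).

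The replication genes moved in both directions. The helicase subunits Mcm5 and Mcm6 rose, from 5.24 to 7.05 CPM in WT to 6.95 to 9.07 in rd10 vehicle for Mcm5 (1.34-fold, log2 fold change 0.42, SE 0.10, adjusted p = 0.00245) and 1.27-fold for Mcm6 (log2 fold change 0.34, SE 0.10, adjusted p = 0.00959). Their partners Mcm2 and Mcm3 had log2 fold changes of -0.17 (adjusted p = 0.1) and 0.09 (adjusted p = 0.649). Pcna fell 1.23-fold (log2 fold change -0.29, SE 0.06, adjusted p = 0.00114) and Tyms, the enzyme that makes thymidylate, 1.29-fold (log2 fold change -0.37, SE 0.14, adjusted p = 0.0376), a call that ended in 8 of 12 fits with 1 retina left out. Foxm1, the transcription factor of late cell cycle genes, stood at 0.42 (adjusted p = 0.0557). With no TMM scaling the median over all genes moved from 0.01 to 0.22 on the log2 scale, and 5 members rose and 6 fell, with the calls for Pcna, Tyms, Prc1 and Ect2 lost and Foxm1 called higher. In that fit 9337 of all 20763 genes rose and 3574 fell.

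WT retina 3 decided the values of several members at low levels. Cdk1, the kinase of mitotic entry, was at 0.143, 0.0314, 1.55 and 0.266 CPM in the 4 WT retinas, or 8, 2, 94 and 18 counts. In rd10 vehicle it was at 0.279 CPM in the lowest, 0.407 at the median and 0.664 in the highest retina, so that every rd10 vehicle retina lay between WT retina 3 and the other WT retinas. With all libraries the log2 fold change was -0.09 (SE 0.61, adjusted p = 0.907), and without WT retina 3 it was 1.64 (adjusted p = 0.00801). Bub1 had 0, 2, 19 and 4 counts in WT, and its log2 fold change of 1.09 (adjusted p = 0.188) became 2.704 (adjusted p = 0.00626). Without this retina 7 of 29 members rose and 9 fell, the added ones being Cdk1, Bub1 and Foxm1 and the lost one Tyms. In the same fit 6784 of all 21161 genes rose and 6330 fell. WT retina 3 was the highest WT retina for 21 of the 32 members. It also had the highest summed pigment epithelium markers of WT (206 against 64.8 to 100 CPM in the others), and its microglia sum was 114 against 76.0 to 103 CPM. Its sums of Müller glia (5744 against 4288 to 5008 CPM), pericyte and fibroblast (176 against 118 to 132) and erythroid markers (29.5 against 8.89 to 25.3) were the highest of WT too. Its rod sum was the lowest (79050 against 81765 to 90094 CPM), and its endothelium sum lay within the others (439 against 416 to 462 CPM). The part of these in its member levels was not tested.

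**Figure D4:**
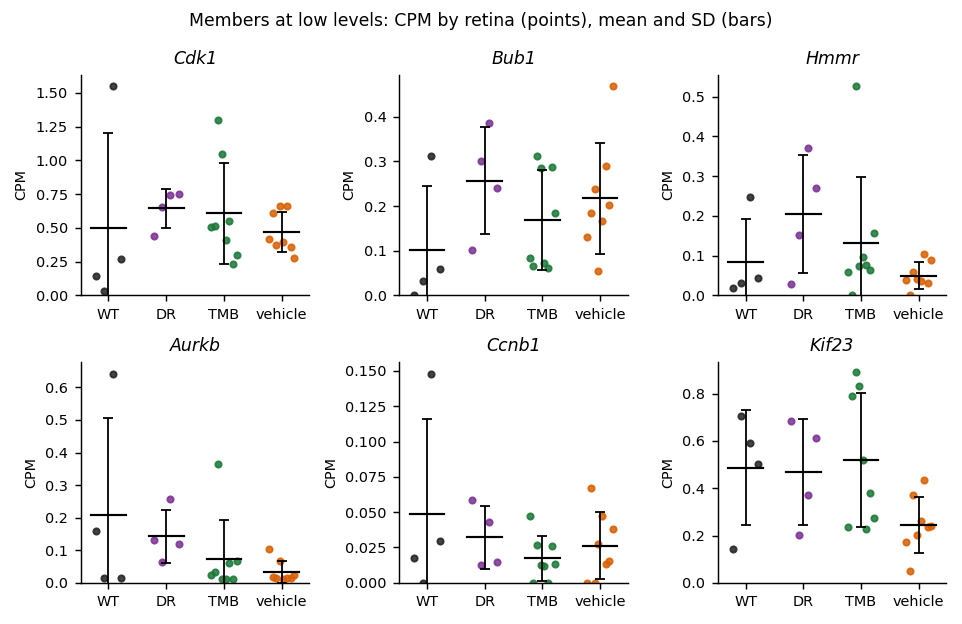
CPM of Cdk1, Bub1, Hmmr, Aurkb, Ccnb1 and Kif23 in each retina (points), with group means (lines) and SD (bars), for WT, rd10 DR, rd10 TMB and rd10 vehicle, on axes that start at 0. In the first 5 panels the top WT point is WT retina 3, at 1.55 CPM for Cdk1, and rd10 TMB retina 3 is the top rd10 TMB point for Cdk1, Hmmr and Aurkb.

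Against WT, the share of members that fell in rd10 TMB was again near that of all genes, and the share that rose was below it. Of those that fell, Ccna2, Spc25 and Plk1 had the largest fold changes. Of 29 tested, 1 rose (3.45%, against 27.2% of 20848 genes) and 8 fell (27.6%, against 24.9%). On the log2 scale the median change was -0.15 over the members and 0.0037 over all genes. With no TMM scaling 5 rose and 4 fell, where 8132 of all genes rose and 2740 fell, the median over all genes then being 0.17. Ccna2 was at 11.2 CPM in the lowest, 14.2 at the median and 17.99 in the highest rd10 TMB retina, 1.95-fold below WT (log2 fold change -0.96, SE 0.12, adjusted p = 1.13e-05) and without overlap. Plk1 was 1.66-fold lower (log2 fold change -0.73, SE 0.20, adjusted p = 0.00703), and its values of 0.380 to 0.820 CPM were all below WT. Spc25 was 1.70-fold lower (log2 fold change -0.77, SE 0.14, adjusted p = 0.000343), from 78.0 to 131 CPM, again below every WT retina. Cenpe, Aurka, Ect2, Prc1 and Pcna also fell, by log2 fold changes of -0.54, -0.53, -0.42, -0.42 and -0.21. Cenpf was at 0.130 CPM in the lowest, 0.388 at the median and 1.22 in the highest retina, which was rd10 TMB retina 3, and its log2 fold change of -1.11 had an adjusted p of 0.0524. Without that retina it was -1.52 (adjusted p = 0.00296). Rd10 TMB retina 3, also the highest of its group for Cdc20, Hmmr and Aurkb, had the highest erythroid sum of the group (100.45 CPM, others 9.32 to 36.96), the highest microglia sum (498, others 360 to 466) and the highest sum of monocyte, neutrophil and lymphocyte markers (5.91, others 1.33 to 4.87). Its pigment epithelium sum was 821 CPM, where retina 4 had 851, retina 2 had 557 and the other 5 had 155 to 212. The part of these in its member levels was not tested. Cdc20 rose 1.79-fold (log2 fold change 0.84, SE 0.33, adjusted p = 0.0431), a call that ended in 7 of 12 fits with 1 retina left out. Without WT retina 3, 3 members rose (Mcm6, Cdk1 and Bub1) and 7 fell, with Cdc20 and Ect2 no longer called, where 5987 of all 21266 genes rose and 5281 fell. With RD10 retinas 4 of 29 rose and 7 fell, where 5541 of all 20427 genes rose and 5302 fell. With RD9 retinas 1 of 28 rose and 4 fell, where 4118 of all 20309 genes rose and 3083 fell.

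In rd10 DR retinas few members passed the test against WT. Of 30 tested, 0 rose, against 14.5% of 20051 genes, and 2 fell (6.67%, against 10.2%), by edgeR. Both were also the only members past an unadjusted p of 0.05, where 7354 of all 20051 genes were past it. DESeq2 called 0 members higher and 2 lower, where it called 2994 of all genes higher and 2839 lower. The lower members were Spc25 and Ccna2. Spc25 was at 86.8, 89.6, 82.5 and 99.2 CPM, 1.83-fold below WT (log2 fold change -0.87, SE 0.09, adjusted p = 8.04e-05), with no overlap. Ccna2 was 1.31-fold lower (log2 fold change -0.39, SE 0.09, adjusted p = 0.0112). Ect2 also had groups that did not overlap, at 2.17 to 2.78 CPM against 2.81 to 3.29 in WT, with an adjusted p of 0.163. Without WT retina 3, Mcm3, Mcm6, Cdk1, Bub1 and Hmmr were called higher, with log2 fold changes of 0.54, 0.36, 2.11, 2.95 and 2.62 (adjusted p = 0.0159, 0.0416, 0.00509, 0.00766 and 0.0282), so that 5 of 30 rose and 2 fell. In that fit 3763 of all 20389 genes rose and 2986 fell.

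**Figure D5:**
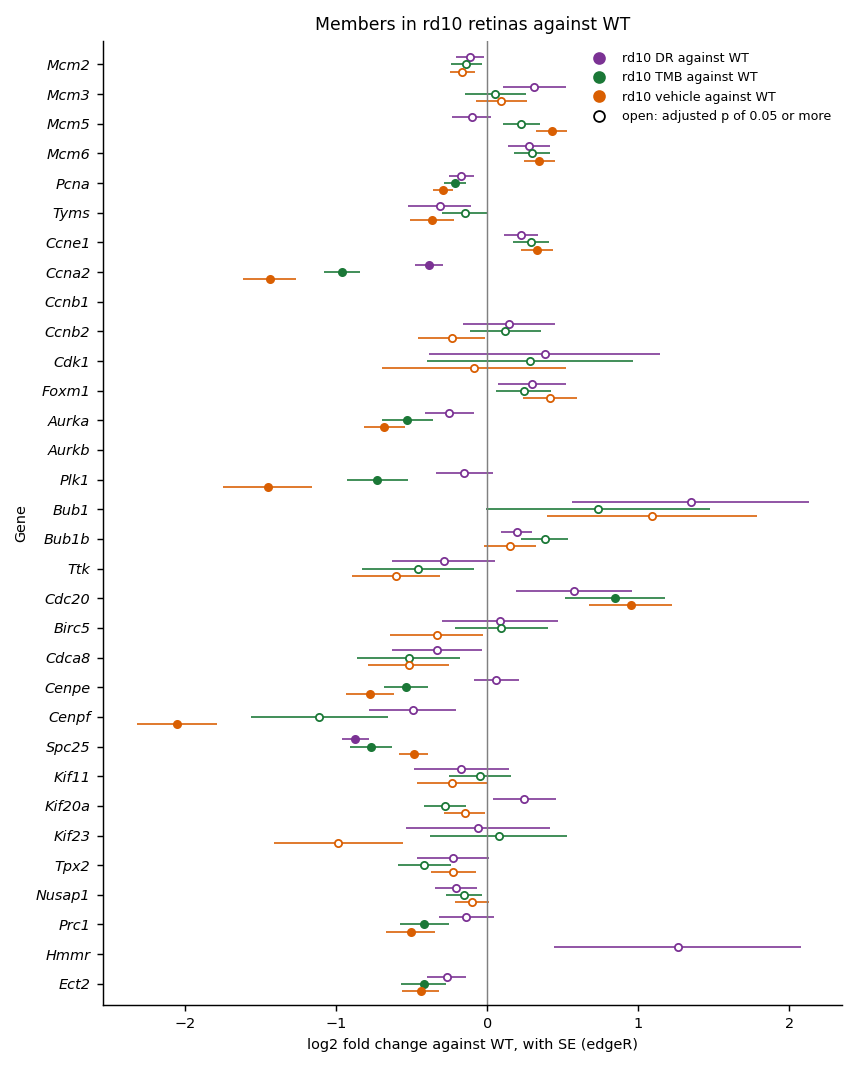
Log2 fold changes of the members against WT (x axis) with their SE (bars) for rd10 DR, rd10 TMB and rd10 vehicle, by edgeR, where filled points have an adjusted p under 0.05. Cenpf, Plk1 and Ccna2 lie farthest to the left in rd10 vehicle, at -2.05, -1.45 and -1.44, and Spc25 in rd10 DR, at -0.87; members with no point did not pass the filter.

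Rd10 vehicle against rd10 DR sets older, light-exposed retinas beside younger dark-reared ones. Of 29 members tested, 2 rose (6.9%, against 21.9% of 20850 genes) and 5 fell (17.2%, against 20.6%). The median change on the log2 scale was -0.17 over the members and 0.02 over all genes. Cenpf was 2.93-fold (log2 fold change -1.55, SE 0.26, adjusted p = 0.000203), Plk1 2.44-fold (log2 fold change -1.29, SE 0.29, adjusted p = 0.00222), Ccna2 2.06-fold (log2 fold change -1.04, SE 0.17, adjusted p = 0.000196) and Cenpe 1.77-fold lower (log2 fold change -0.82, SE 0.13, adjusted p = 0.000157). For these 4 every rd10 vehicle retina was below every rd10 DR retina. The share of all genes without overlap was not counted in any comparison. Aurka was 1.33-fold lower (adjusted p = 0.0242), with overlap and with an adjusted p of 0.0849 without TMM. Mcm5 was 1.46-fold higher (log2 fold change 0.54, SE 0.09, adjusted p = 0.000274), at 6.95 to 9.07 CPM against 5.11 to 6.04, and Spc25 1.32-fold higher (log2 fold change 0.40, SE 0.08, adjusted p = 0.00134). Spc25 was thus lower than WT in both groups and lowest in the dark-reared one, whereas Ccna2, Cenpf, Plk1 and Cenpe were lower in rd10 vehicle than in rd10 DR. With RD10 retinas alone 2 members rose and 4 fell, where 3976 of all 20225 genes rose and 3757 fell.

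The diet comparison, rd10 TMB against rd10 vehicle, called 0 of 29 members higher, against 3.37% of 20251 genes, and 0 lower, against 2.32%, by edgeR. The shares over all genes rest on single retinas: 683 genes were higher and 469 lower with all retinas, 1 and 1 without rd10 vehicle retina 1, 2 and 1 without rd10 vehicle retina 5, and 2 and 1 without the RD9 females. Of all 20251 genes, 4398 had an unadjusted p under 0.05, and DESeq2 called 1078 higher and 807 lower. Among the 29 members 7 had an unadjusted p under 0.05, namely Ccna2, Plk1, Kif23, Cenpf, Tyms, Mcm5 and Spc25, and DESeq2 called 2 higher. Those 2 were Ccna2 (adjusted p = 0.0183) and Plk1 (adjusted p = 0.0475). By edgeR the log2 fold change of Ccna2 was 0.48 (95% interval 0.18 to 0.77, adjusted p = 0.0656) and Plk1 0.72 (0.23 to 1.21, adjusted p = 0.0921), and for both the ranges overlapped, at 11.2 to 17.99 against 6.52 to 16.1 CPM and at 0.380 to 0.820 against 0.179 to 0.633 CPM. Leaving out rd10 vehicle retina 2, which had the highest Ccna2 of its group at 16.1 CPM, gave an adjusted p of 0.0173 for Ccna2. Kif23 was at 0.228, 0.449 and 0.893 CPM as lowest, median and highest in rd10 TMB and at 0.0506, 0.238 and 0.435 in rd10 vehicle, with a log2 fold change of 1.06 (95% interval 0.35 to 1.77, adjusted p = 0.0875). For Spc25 it was -0.28 (95% interval -0.50 to -0.07, adjusted p = 0.131), and with RD10 retinas alone -0.56 (adjusted p = 0.0252), the 1 member called there, where 7 of all genes were called higher and 5 lower. RD9 retinas alone called 0 members and 0 of all genes, and a fit with the prefix as a term called 0 members, with 544 of all genes higher and 285 lower. The summed rod markers had a median of 25218 CPM in rd10 TMB (18808 to 38196) and 14812 in rd10 vehicle (7857 to 24688). The group medians of Ccna2 and Plk1 were also higher in rd10 TMB, and the part of the rods in these values was not tested. In the edgeR fit of sex by diet 0 of 29 members passed the test, as did 0 of 20251 genes. Kif23 was the 1 member with an unadjusted p under 0.05 (0.0371), and its adjusted p was 0.9995, as for the other members tested. Without the RD9 females 0 of 29 members passed, where 47 of 20446 genes did. In that fit 3 members had an unadjusted p under 0.05, and the smallest adjusted p of a member was 0.35, for Cdk1.

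Set side by side, the group means of Ccna2 were 27.7 ± 2.56 CPM in WT, 21.04 ± 2.23 in rd10 DR, 14.3 ± 2.52 in rd10 TMB and 10.3 ± 2.92 in rd10 vehicle. Plk1 had the same order, at 1.10 ± 0.17, 0.986 ± 0.153, 0.669 ± 0.154 and 0.407 ± 0.172 CPM, as did Cenpf, at 0.968 ± 0.337, 0.681 ± 0.165, 0.450 ± 0.344 and 0.232 ± 0.073 CPM (SD, n = 4, 4, 8 and 8). The neighbours rd10 TMB and rd10 vehicle did not pass the test for any of them by edgeR, nor did WT and rd10 DR for Plk1 and Cenpf. The neighbours rd10 DR and rd10 TMB were not tested against each other. Their ranges overlapped for Cenpf (0.539 to 0.857 and 0.130 to 1.22 CPM) and Ccna2 (17.7 to 22.4 and 11.2 to 17.99), and not for Plk1 (0.871 to 1.21 and 0.380 to 0.820). The medians of the summed rod markers, 82284, 50517, 25218 and 14812 CPM, fell in that order too, whereas those of the microglia and macrophage markers, 93.3, 324, 403 and 431 CPM, of Müller glia, 4704, 5926, 7548 and 8484 CPM, and of endothelium, 443, 660, 822 and 886 CPM, rose. Spc25 had another order, at 166 ± 23.7 in WT, 119 ± 14.02 in rd10 vehicle, 98.0 ± 21.3 in rd10 TMB and 89.5 ± 7.06 in rd10 DR. The fits against WT share the same 4 WT retinas. The part of the cell type markers in these orders was not tested.

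Genes of the same processes outside the list were counted in the same fits. Of 30 other replication genes 2 rose and 14 fell in rd10 vehicle (median change -0.22 on the log2 scale), and of 35 other mitotic genes 3 rose and 15 fell (median -0.30), where 31.6% of all genes rose and 30.2% fell. Among the replication genes with the larger changes were Mcm10, which loads factors onto the helicase (log2 fold change -2.16, adjusted p = 6.62e-08), the DNA repair gene Brca1 (-1.79), Chaf1a of chromatin assembly (-0.83) and Rfc4 of the clamp loader (-0.73). The first 5 mitotic genes were the chromatin protein gene Hmgb2 (-1.99), the centromeric histone Cenpa (-1.87), the cohesin protector Sgo1 (-1.72), the spindle pole gene Aspm (-1.67) and the motor Kif18a (-1.49). Brca1 was at 15.5 to 16.6 CPM in WT, 8.57 to 12.5 in rd10 DR, 4.57 to 8.70 in rd10 TMB and 2.79 to 6.11 in rd10 vehicle, so that WT overlapped with no rd10 group. In rd10 TMB 0 of 30 replication genes rose and 14 fell, and of 36 mitotic genes 3 rose and 12 fell, where 27.2% of all genes rose and 24.9% fell. In rd10 DR 1 of 30 replication genes rose and 4 fell, and of 34 mitotic genes 1 rose and 10 fell, against 14.5% and 10.2% of all genes.

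Genes upstream of the cycle were called in both directions, at shares near those of all genes for the G1 list (31.6% higher, 30.2% lower). Of 18 G1 cyclins, Cdks and members of the E2f and Rb families, 6 rose and 6 fell in rd10 vehicle against WT. Myc, a driver of growth, had the largest value (2.94, adjusted p = 0.013), with 1 rd10 vehicle retina at 16.2 CPM and the other 7 at 0.843 to 1.58 CPM, against 0.237 to 0.609 in WT. E2f1, an activator of replication genes, was at 1.35 to 2.27 CPM in WT and 3.77 to 5.39 in rd10 vehicle (log2 fold change 1.40, adjusted p = 2.97e-06), and Mybl2, which works on late cell cycle promoters, fell (-1.44, adjusted p = 1.76e-05). Of 13 Cdk inhibitors and p53 targets 3 rose and 6 fell, among them the p53 target Phlda3 (1.17, adjusted p = 2.51e-05) and the inhibitors Cdkn1a (1.04, adjusted p = 0.00311) and Cdkn2c (-1.07, adjusted p = 1e-05). In rd10 TMB against rd10 vehicle, 1 of 30 replication genes (Mcm10, 0.77, adjusted p = 0.0258) and 3 of 34 mitotic genes rose, namely Kif18a (0.54, adjusted p = 0.029), Kif15, a spindle motor (0.44, adjusted p = 0.0462), and Lmnb1 of the nuclear lamina (0.41, adjusted p = 0.0231), and 0 fell, where 3.37% of all genes rose. Lmnb1 was at 27.3 to 35.6 CPM in rd10 TMB and at 18.7 to 27.1 in rd10 vehicle, without overlap. Of the Cdk inhibitors Cdkn2c rose (0.53, adjusted p = 0.0253). All 5 calls (Mcm10, Kif18a, Kif15, Lmnb1 and Cdkn2c) ended without rd10 vehicle retina 1 (adjusted p 0.0522 to 0.0975), without rd10 vehicle retina 5 (0.0505 to 0.101) and without the RD9 females (0.07 to 0.104), while the log2 fold changes with 1 retina left out stayed above 0, the lowest being 0.38 for Lmnb1. Of the 16 such fits the call was lost in 2 for Lmnb1, 3 for Mcm10, 4 for Cdkn2c, 5 for Kif18a and 12 for Kif15.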

How the data were processed

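Polyadenylated RNA from the retina of 24 mice was sequenced from libraries that do not mark strand. The deposited values are raw counts per gene, which the authors made with HTSeq from STAR alignments to GRCm38 after trimming in Trimmomatic. The sources differ on single or paired reads. Deposited columns of the authors' own fold changes and adjusted p-values (DESeq2) were not used, nor were 8 repeated WT columns, and 0 columns were without a sample. Each pair of groups was fitted on its own in edgeR 4.0.16 (R 4.3.3; default expression filter, TMM, quasi-likelihood F test, Benjamini-Hochberg over all genes tested, threshold 0.05), with DESeq2 1.42.0, other scalings, filters and covariates, batches and each retina left out as alternatives. No label says that retinas of one group came from separate litters, so p-values measure the spread between these mice. The procedure was tested on simulated data. Levels are CPM after TMM over all 24 libraries. Lengths, positions and overlaps are from GENCODE M21 on GRCm38, where all 37 symbols were found. Correlations were tested by exact permutation in Python with NumPy 2.4.6, over all 40320 pairings of 8 retinas.

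The members and all gene lists were chosen with earlier results of these data known. The members given in full in each comparison are at most 12, those past the threshold with the largest changes and then those nearest to it. Of other cell cycle lists at most 5 genes a comparison are named, those past the threshold with the largest changes, and of cell type lists the first 2. One result under this rule is not reported here. The low members shown for WT retina 3 were chosen after their values were seen. Where a gene shares exon bases with another on the other strand, reads from those bases cannot be told apart by strand. Among the members this holds for Kif20a (29.3% of its exon bases, Cdc23), Ccna2 (12.5%, Exosc9), Prc1 (11.1%, Rccd1) and Plk1 (7.09%, Gm44985).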

Additional observations from a re-analysis of the deposited data

Results flagged for a closer look

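Of 128 sets of 1 member in 1 group, 11 held a retina far from the rest of its group by Dixon's criterion, which chance alone meets in about 1 of 20 groups. Of these, 4 were in rd10 TMB retina 3, with Cenpf at 1.22 CPM (others 0.13 to 0.584), Cdc20 at 0.622 (others 0.19 to 0.365), Hmmr at 0.528 (others 0 to 0.157) and Aurkb at 0.365 CPM (others 0.0121 to 0.0655). WT retina 3 had Cdk1 at 1.55 CPM (others 0.0314 to 0.266) and Hmmr at 0.247 CPM (others 0.0178 to 0.0444). WT retina 2 was highest for Nusap1, at 4.3 CPM (others 3.49 to 3.62), and lowest for Ect2, at 2.81 CPM (others 3.21 to 3.29). Ccna2 was at 17.7 CPM in rd10 DR retina 2 (others 21.7 to 22.4), Ccnb2 at 0.423 CPM in rd10 TMB retina 4 (others 0.882 to 1.15) and Pcna at 16.5 CPM in rd10 vehicle retina 7 (others 13.6 to 14.9).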

How the results depend on the processing

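In rd10 vehicle against WT, 10 members lower became 6 without TMM, and with 1 retina left out 4 to 7 rose and 9 to 12 fell, the 7 without WT retina 3. Cdk1 turned from -0.09 to 1.64 without WT retina 3 (adjusted p = 0.00801), and the other fits with 1 retina left out began at -0.48. In rd10 TMB against WT, 1 member higher became 0 at an adjusted p under 0.01 and with sex as a covariate, 2 with a filter of CPM 1 in 4 libraries or without the RD9 females, 3 by DESeq2 and in one fit over all groups, 4 with RD10 retinas alone and 5 without TMM. It was 0 to 4 with 1 retina left out, the 4 without rd10 TMB retina 5. The 8 lower became 4 at the stricter threshold, without TMM and with RD9 retinas alone, and 5 to 10 with 1 retina left out, the 5 without WT retina 2. In rd10 DR against WT, 2 lower became 1 at the stricter threshold and in one fit, and 0 to 5 rose with 1 retina left out. In rd10 vehicle against rd10 DR, 5 lower became 3 with the CPM filter and 4 to 7 with 1 retina left out. In rd10 TMB against rd10 vehicle, 0 higher became 2 by DESeq2 and in one fit and 0 to 1 with 1 retina left out, and 0 lower became 1 with RD10 retinas alone. Beyond the alternatives that hold fewer genes or retinas, the cause was not tested. Without TMM the higher share of all calls went from 51.1% to 72.3%, 52.2% to 74.8%, 58.8% to 78.9%, 51.5% to 69.5% and 59.3% to 38.7%, in the order rd10 vehicle, rd10 TMB and rd10 DR against WT, rd10 vehicle against rd10 DR, and rd10 TMB against rd10 vehicle. No paired analysis was possible because the replicate numbers were given in accession order and the titles hold animal numbers. Relations planned with Top2a were not run. The values of Ccnb1, Hmmr, Aurkb, Bub1 and Birc5, with at most 39 counts in any library, rest on few reads.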

Other observations

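Levels of Cdk1 and Ccna2, genes chosen after their values were seen, were related to Mcm5, Pcna, the microglial genes Aif1 and Cx3cr1, the vessel gene Kdr and the Müller glia gene Rlbp1 across the 8 retinas of rd10 vehicle and of rd10 TMB, 24 relations in all on log2 CPM. By exact two-sided permutation over 40320 pairings 3 had an unadjusted p under 0.05 and 0 passed after Benjamini-Hochberg adjustment. The smallest p was that of Cdk1 with Rlbp1 in rd10 vehicle (Pearson r = -0.78, exact permutation p = 0.0149, adjusted p = 0.282; Spearman rho = -0.74, exact permutation p = 0.0458, adjusted p = 0.461), with r = -0.90 after the 2 retinas farthest from the median of Cdk1 were left out. Retinas of 1 title prefix numbered at most 5 in a group, too few for a value within it.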
